A study of Mus musculus with 15 samples.

Results

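The genes described here were 10 members of the Krüppel-like factor (KLF) family, namely Klf2, Klf3, Klf4, Klf5, Klf6, Klf7, Klf9, Klf10, Klf13 and Klf15. They were taken by symbol from the count tables, which list 78298 genes, and all 10 were found and all 10 passed the filter on low counts that left 17560 genes. Poly-A RNA had been sequenced from mouse small intestinal organoids in 15 libraries, 3 biological replicates for each of 5 conditions. The organoids were grown from crypts of adult female mice bred with C57BL/6J and all carried a lentiviral transgene behind the weak ubiquitous L30 promoter. Halo-NLS, the control, expressed the HaloTag with a V5 tag and a nuclear localization signal. SOX9-Halo_budding and SOX9-mEGFP_budding expressed SOX9, a transcription factor of crypt stem and Paneth cells, fused to HaloTag or to mEGFP and to V5, and still grew as budding organoids. SOX9-Halo_spheroid and SOX9-mEGFP_spheroid carried the same fusions, had been cultured longer, grew as round spheroids and also carried a second transgene, H2B-mEGFP in the SOX9-Halo line and H2B-mScarletI in the SOX9-mEGFP line. The SOX9 lines that received the second transgene were wild-type, whereas the study also kept organoids from LGR5::DTR-EGFP mice, and for the Halo-NLS and budding libraries the strain of mouse was not given in the sources used here. Shape, culture time, the second transgene and any difference in strain therefore cannot be told apart between budding and spheroid, and each condition is 1 stable line. The paper ordered the conditions by spheroid morphology and time in culture, with each SOX9-mEGFP condition before the SOX9-Halo condition of the same shape. Between these conditions line, fusion tag and place in that order cannot be told apart. Between the spheroids the second transgene and its selection antibiotic differed as well.

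KLF proteins bind GC-rich and CACCC-containing DNA through a set of zinc fingers at their carboxyl end, and differ in the parts of the protein that recruit activators or repressors. In the intestinal epithelium KLF5 is known from dividing crypt cells and KLF4 from differentiated cells of the villus, among them goblet cells. KLF9 and KLF15 are known as genes induced by glucocorticoids, KLF10 by TGF-beta, KLF2 and KLF4 downstream of ERK5 and MEF2 factors, and KLF3 as a repressor that works through CtBP proteins.

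Between 28062722 and 40559766 reads per library were counted on genes. Values are normalized counts, that is counts scaled by TMM factors to the mean effective library size, and are given in the order of replicates 1, 2 and 3. Sox9, whose reads cannot be told apart between transgene and endogenous gene, was at 305 to 769 normalized counts in Halo-NLS and at 6487 to 23654 in 11 of the 12 SOX9 libraries, with SOX9-Halo_budding replicate 1 at 1336. Halo-NLS replicate 3 stood apart: it held the most genes with a count (40375, against 24214 to 34646 elsewhere) and the lowest value of its condition for 8 of the 10 KLF genes, which summed to 6486 normalized counts there against 15174 and 16019 in the other Halo-NLS libraries. The 10 small intestinal markers checked (Cdx2, Vil1, Cdh17, Lgr5, Olfm4, Lyz1, Muc2, Chga, Dclk1 and Fabp2) summed to 111065 to 156510 in Halo-NLS, to 50453 to 61528 in SOX9-mEGFP_spheroid and to only 3815 to 5060 in SOX9-Halo_spheroid, where Chga was at no more than 3 counts in every library. The SOX9-Halo spheroids thus lacked most of the expression that their label, small intestinal, stands for, while the 6 epithelial markers summed to 163154 to 380404 in all conditions. Within that sum single markers moved in opposite directions in SOX9-Halo_spheroid against Halo-NLS, where Epcam (from a mean of 33336 to 15463) and Cldn7 (from 41644 to 11394) fell and Krt18 (from 17451 to 52269) rose.

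The DNA upstream of 4 of the genes that passed the test in a comparison is shown so that the letters a KLF protein is known to bind can be seen beside the gene. Each window holds the 250 bases before the annotated start of the gene, read from GRCm39 with the GENCODE M39 annotation and written 5′ to 3′ along the gene's strand. Capitals mark CACCC (the KLF motif) and GGGCGG (the GC box) on either strand.
Klf9, chr19:23117937-23118186, plus strand: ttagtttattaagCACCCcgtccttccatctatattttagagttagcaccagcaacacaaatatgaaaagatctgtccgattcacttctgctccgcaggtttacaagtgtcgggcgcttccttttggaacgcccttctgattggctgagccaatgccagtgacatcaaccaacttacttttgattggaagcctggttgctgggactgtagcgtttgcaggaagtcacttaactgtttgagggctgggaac
Klf4, chr4:55532529-55532778, minus strand: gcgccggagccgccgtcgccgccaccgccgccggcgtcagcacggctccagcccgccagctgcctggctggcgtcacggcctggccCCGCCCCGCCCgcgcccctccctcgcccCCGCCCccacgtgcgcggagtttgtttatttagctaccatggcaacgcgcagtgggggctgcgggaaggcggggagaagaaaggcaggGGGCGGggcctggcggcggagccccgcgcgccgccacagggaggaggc
Klf6, chr13:5911231-5911480, plus strand: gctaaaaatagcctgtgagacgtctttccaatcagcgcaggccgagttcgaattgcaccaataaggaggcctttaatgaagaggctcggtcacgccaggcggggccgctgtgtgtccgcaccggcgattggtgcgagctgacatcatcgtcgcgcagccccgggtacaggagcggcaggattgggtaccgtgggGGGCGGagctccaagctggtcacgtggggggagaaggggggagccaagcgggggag
Klf10, chr15:38300960-38301209, minus strand: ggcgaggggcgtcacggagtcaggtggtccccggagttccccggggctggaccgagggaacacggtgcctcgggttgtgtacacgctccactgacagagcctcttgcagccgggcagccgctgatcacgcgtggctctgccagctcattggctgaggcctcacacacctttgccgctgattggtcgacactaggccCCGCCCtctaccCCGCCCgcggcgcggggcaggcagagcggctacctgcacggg

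Klf9 had 1 CACCC and no GC box in a window of 46.4% GC, and Klf4 had 4 GC boxes, some of them sharing bases, in a window of 78% GC. Over the 9 members examined here, 5 windows held CACCC, against 51.3% of the windows of 21769 protein-coding genes, and 7 held GGGCGG, against 29.9%. Those 7 windows had 58.4% to 78% GC, and the windows of Klf3 and Klf9, without a GC box, had 40.4% and 46.4%. The median of all windows was 51.2% GC (quartiles 44.8% and 58.4%), and the part of GC content in these matches was not tested. The letters TATAA were in 0 of these 9 windows (23.3% of all), the SOX motifs ACAATG in 0 (10.1%) and ACAAAG in 1 (17.1%), and TGTTCT, the core of the glucocorticoid receptor element, in 1 (15.5%), the last 2 both in Klf3. These are matches of letters, counted on both strands, and matches of different motifs may share bases. The windows of Klf9 and Klf3 lay wholly within exons of the lncRNAs Gm56648 and Gm20033.

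Whether the KLF genes differed between SOX9 organoids and the Halo-NLS control was asked first for the spheroids. In SOX9-Halo_spheroid 4 of the 10 genes rose against Halo-NLS (Klf6, Klf9, Klf10 and Klf15) and none fell, where 28.9% of all tested genes were called in either direction and 13.6% were called higher. In SOX9-mEGFP_spheroid 5 rose (Klf4, Klf6, Klf9, Klf10 and Klf15) and none fell, where 27.5% of all genes were called and 15.3% called higher. Rose, fell and called mean here that edgeR's quasi-likelihood test gave an adjusted p of no more than 0.01 (Benjamini-Hochberg over all 17560 genes), with a log2 fold change of 1 or more in size and 10 or more normalized counts on average. The median log2 fold change of the 10 genes was 0.14 in SOX9-Halo_spheroid and 1.16 in SOX9-mEGFP_spheroid, against -0.01 and 0.03 for all tested genes. The summed small intestinal markers were lower in the same comparisons, as given above. Of these 10 markers 8 fell and 0 rose in SOX9-Halo_spheroid. In SOX9-mEGFP_spheroid 4 fell (Cdx2, Lyz1, Chga and Fabp2) and Lgr5 rose. The 4 smooth muscle markers summed to 34.4 to 60.5 in SOX9-Halo_spheroid against 2.30 to 21.4 in Halo-NLS. Myh11, Cnn1 and Acta2 were at no more than 3 counts in those spheroids. The part of either set of markers in the KLF values was not tested. In bulk RNA, fewer cells of a type and less RNA per cell cannot be told apart.

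**Figure D1:**
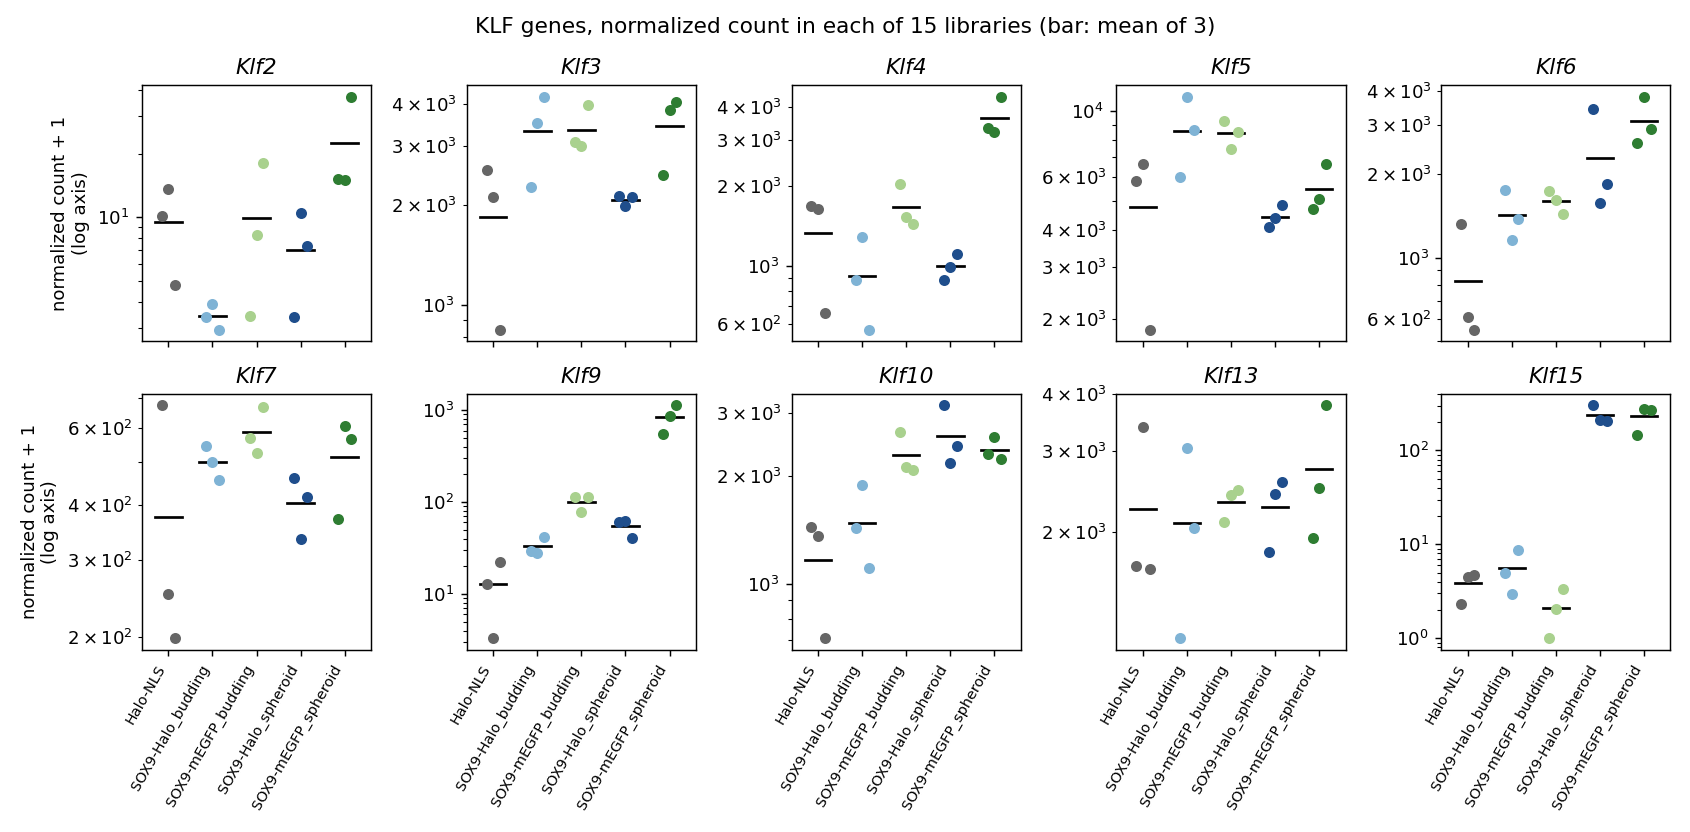
Normalized count plus 1 (log axis) of each of the 10 KLF genes in the 15 libraries, by condition; each point is a library and each bar the mean of 3. Klf15 lies at 205 to 302 in SOX9-Halo_spheroid and at 146 to 272 in SOX9-mEGFP_spheroid against at most 7.80 elsewhere, and Klf9 at 543 to 1132 in SOX9-mEGFP_spheroid alone.

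Klf15, known as a regulator of amino acid and lipid use in liver and muscle, was close to silent in every budding condition and was present in every spheroid library. Halo-NLS held 1.31, 3.44 and 3.77 normalized counts, which are 1, 3 and 3 reads, SOX9-Halo_budding 3.98, 1.95 and 7.80, and SOX9-mEGFP_budding 0, 1.04 and 2.34. SOX9-Halo_spheroid held 302, 210 and 205, and SOX9-mEGFP_spheroid 146, 272 and 270. All 6 spheroid libraries lay above all 9 others, and the spheroid values of both lines overlapped. Taking Halo-NLS at its limit of 3 counts per library, Klf15 (chr6:90438998-90452220 of GRCm39, plus strand, ENSMUSG00000030087) was at least 64.4-fold higher in SOX9-Halo_spheroid (adjusted p = 2.44e-07) and at least 61.8-fold higher in SOX9-mEGFP_spheroid (adjusted p = 5.47e-07). Against the budding organoids of its own line it was higher by 5.68 ± 0.50 on the log2 scale (SE, adjusted p = 3.34e-07) in SOX9-Halo_spheroid and at least 75.7-fold higher in SOX9-mEGFP_spheroid (adjusted p = 4.13e-07). Between the spheroid lines the log2 difference was 0.06 ± 0.37 (adjusted p = 0.935).

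Klf9, a small KLF protein known as a target of glucocorticoid and thyroid hormone receptors, was low in the control and differed between both SOX9 lines. Halo-NLS held 11.8, 2.29 and 21.4 normalized counts (9, 2 and 17 reads), SOX9-Halo_budding 28.6, 27.2 and 41.0, SOX9-mEGFP_budding 112, 76.8 and 111, SOX9-Halo_spheroid 60.4, 61.5 and 39.6, and SOX9-mEGFP_spheroid 543, 867 and 1132. No SOX9 library overlapped Halo-NLS, and the SOX9-mEGFP libraries lay above the SOX9-Halo libraries of the same shape without overlap. Against Halo-NLS the log2 fold change was 6.17 ± 0.54 in SOX9-mEGFP_spheroid (adjusted p = 5.82e-07), 2.19 ± 0.50 in SOX9-Halo_spheroid (adjusted p = 0.00215) and 3.09 ± 0.50 in SOX9-mEGFP_budding (adjusted p = 0.00178). In a fit of only the libraries compared the last 2 calls were lost (2.15, adjusted p = 0.0139, and 3.05, adjusted p = 0.0332). Klf9 was the only member called in SOX9-mEGFP_budding, where 2.76% of all genes were called and 1.99% called higher. In SOX9-Halo_budding its value of 1.46 ± 0.51 missed the threshold (adjusted p = 0.0561), as did its difference between the budding lines, -1.63 ± 0.44 (adjusted p = 0.126).

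Directly compared, Klf9 was 15.7-fold lower in SOX9-Halo_spheroid than in SOX9-mEGFP_spheroid (log2 difference -3.98 ± 0.46, adjusted p = 1.48e-05). From budding to spheroid it rose by 3.08 ± 0.44 in the SOX9-mEGFP line (adjusted p = 8.99e-05), and its value in the SOX9-Halo line was 0.73 ± 0.44 (adjusted p = 0.211). The test of the difference between these changes gave -2.35 ± 0.61 with an adjusted p of 0.0187, which missed the threshold of 0.01, and 0 of the 10 members were called there, where 7.39% of all genes were. The other tested genes of chromosome 19, on which Klf9 lies (chr19:23118187-23148497, plus strand, ENSMUSG00000033863), had a median of -0.79 in SOX9-mEGFP_spheroid against Halo-NLS and of 0.56 in SOX9-Halo_spheroid against SOX9-mEGFP_spheroid, opposite in sign to Klf9 in both. The lncRNA Gm56648 on the opposite strand shares 333 exon bases with Klf9, 4.05% of its exons, and the counting did not use strand.

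Klf4 and Klf5, the pair best known in this epithelium, behaved differently. Klf4 (chr4:55527139-55532528, minus strand, ENSMUSG00000003032) held 1674, 1633 and 661 normalized counts in Halo-NLS, 881, 990 and 1104 in SOX9-Halo_spheroid, and 3322, 3197 and 4371 in SOX9-mEGFP_spheroid. The SOX9-mEGFP spheroids lay above every other library of the series. Klf4 rose there by 1.46 ± 0.34 on the log2 scale against Halo-NLS (adjusted p = 0.0027), a call that was lost without SOX9-mEGFP_spheroid replicate 3 (1.29, adjusted p = 0.0140) and in a fit of only the libraries compared (1.40, adjusted p = 0.0173). In SOX9-Halo_spheroid its value against Halo-NLS was -0.42 ± 0.33 (adjusted p = 0.321), and it was 3.66-fold lower there than in SOX9-mEGFP_spheroid (log2 difference -1.87 ± 0.34, adjusted p = 8.32e-04). Klf4 and Klf9 were the 2 members called between the spheroid lines, both lower in SOX9-Halo_spheroid, where 13.2% of all genes were called and 9.58% called lower.

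The budding libraries held 881, 1280 and 571 of Klf4 in SOX9-Halo_budding and 2031, 1527 and 1440 in SOX9-mEGFP_budding. These groups did not overlap, and their difference of -0.87 ± 0.33 did not pass (adjusted p = 0.392). From SOX9-mEGFP_budding to SOX9-mEGFP_spheroid Klf4 was higher by 1.12 ± 0.34 (adjusted p = 0.0198, not called), and it was called without the filter on low counts (1.12, adjusted p = 0.00144), in a fit of only the libraries compared (1.09, adjusted p = 0.00416) and without Halo-NLS replicate 3 (1.12, adjusted p = 0.00439).

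Klf5 (chr14:99536086-99552473, plus strand, ENSMUSG00000005148) was the most abundant member in normalized counts in every condition, and passed the test in none of the comparisons. It held 5822, 6638 and 1845 in Halo-NLS, 6010, 11181 and 8609 in SOX9-Halo_budding, 9281, 7475 and 8479 in SOX9-mEGFP_budding, 4077, 4361 and 4826 in SOX9-Halo_spheroid, and 4673, 5066 and 6620 in SOX9-mEGFP_spheroid. Within each line every spheroid library lay below every budding library, and the log2 differences of spheroid against budding were -0.96 ± 0.36 in the SOX9-Halo line (adjusted p = 0.0422) and -0.63 ± 0.35 in the SOX9-mEGFP line (adjusted p = 0.225).

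Klf2, known above all from endothelial cells and lymphocytes, was at 1.95 to 36.2 normalized counts and passed in no comparison. SOX9-mEGFP_spheroid held 14.2, 14.0 and 36.2, SOX9-mEGFP_budding 2.43, 7.27 and 17.1, and Halo-NLS 9.15, 12.6 and 3.77. The SOX9-mEGFP spheroids lay above the control without overlap but overlapped the budding organoids of their line, and the difference from Halo-NLS did not pass (log2 fold change 1.31 ± 0.63, adjusted p = 0.0952). The 6 endothelial markers summed to 3.55 to 7.62 in SOX9-mEGFP_spheroid and to 28.7 to 60.3 in Halo-NLS, with Cdh5, Kdr, Tie1 and Emcn at no more than 3 counts in all 3 of those spheroid libraries. Klf2 lies at chr8:73072726-73075502 (plus strand, ENSMUSG00000055148).

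Klf6 and Klf10, known as genes induced in wounded tissue and by TGF-beta, rose moderately in the spheroids of both lines. Klf6 (chr13:5911481-5920393, plus strand, ENSMUSG00000000078) held 1320, 608 and 549 normalized counts in Halo-NLS, 3443, 1566 and 1843 in SOX9-Halo_spheroid and 2597, 3803 and 2900 in SOX9-mEGFP_spheroid. All 6 spheroid libraries lay above Halo-NLS, and replicate 1 was the highest library both of Halo-NLS and of SOX9-Halo_spheroid. The rise against Halo-NLS was 1.91 ± 0.35 in SOX9-mEGFP_spheroid (3.75-fold, adjusted p = 5.08e-04) and 1.47 ± 0.35 in SOX9-Halo_spheroid (2.77-fold, adjusted p = 0.00285). In the same comparisons the other tested genes of chromosome 13 had medians of 0.28 and 0.09. The call in SOX9-Halo_spheroid was lost without Halo-NLS replicate 2 (1.30, adjusted p = 0.0157), without Halo-NLS replicate 3 (1.24, adjusted p = 0.0156) without SOX9-Halo_spheroid replicate 1 (1.06, adjusted p = 0.0203) and in a fit of only the libraries compared (1.44, adjusted p = 0.0177). The budding values were 1748, 1155 and 1379 in SOX9-Halo_budding and 1740, 1614 and 1440 in SOX9-mEGFP_budding, and no comparison with them passed, but without Halo-NLS replicate 1 Klf6 passed against Halo-NLS in both (1.31, adjusted p = 0.00748, and 1.47, adjusted p = 0.0043).

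Klf10 (chr15:38291703-38300959, minus strand, ENSMUSG00000037465) held 1442, 1360 and 705 in Halo-NLS, 3144, 2172 and 2423 in SOX9-Halo_spheroid and 2303, 2562 and 2222 in SOX9-mEGFP_spheroid, again without overlap with the control. It was higher by 1.14 ± 0.27 in SOX9-Halo_spheroid (adjusted p = 0.00272) and by 1.02 ± 0.27 in SOX9-mEGFP_spheroid (adjusted p = 0.00623), both just past the fold threshold. Without Halo-NLS replicate 3 the values fell to 0.88 and 0.75 and neither was called, without SOX9-Halo_spheroid replicate 1 the first was 0.98 (adjusted p = 0.0156), and in a fit of only the libraries compared the values were 1.11 (adjusted p = 0.0147) and 0.96 (adjusted p = 0.0344). The call in SOX9-mEGFP_spheroid was also lost without any 1 of 6 other libraries: SOX9-mEGFP_budding replicate 2 or 3, SOX9-Halo_spheroid replicate 3, or SOX9-mEGFP_spheroid replicate 1, 2 or 3 (0.94 to 1.04). With all libraries it was lost as well when scaled by DESeq2's size factors (0.97, adjusted p = 0.00922) and with DESeq2 itself (0.98, adjusted p = 0.00416), both just under the fold threshold, so that 4 rather than 5 members were called there. SOX9-mEGFP_budding, at 2654, 2112 and 2074, lay as high as the spheroids (0.96 ± 0.27 against Halo-NLS, adjusted p = 0.0311), and SOX9-Halo_budding, at 1430, 1883 and 1104, lay below SOX9-Halo_spheroid (0.81 ± 0.27 in favour of the spheroid, adjusted p = 0.0244). The lncRNA Gm35248 on the opposite strand shares 62 exon bases with Klf10. The other tested genes of chromosome 15 had a median of 0.36 in SOX9-mEGFP_spheroid and 0.37 in SOX9-mEGFP_budding against Halo-NLS, in sign like Klf10. Klf10 lay 0.66 and 0.59 above these medians. In SOX9-Halo_spheroid the median was -0.08, and Klf10 lay 1.22 above it.

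Klf3, Klf7 and Klf13 passed in no comparison. Klf3 (chr5:64959875-64990261, plus strand, ENSMUSG00000029178), which shares 643 exon bases with the antisense lncRNA Gm20033, ranged from 841 to 4221 normalized counts, with Halo-NLS at 2538, 2114 and 841 and SOX9-Halo_spheroid at a narrow 2117, 1981 and 2113. Its largest value against Halo-NLS was 0.92 ± 0.34 in SOX9-mEGFP_spheroid (adjusted p = 0.0359). Klf13 (chr7:63536099-63588663, minus strand, ENSMUSG00000052040), known from T lymphocytes, lay between 1168 and 3786, and its values against Halo-NLS ran from -0.11 to 0.29, with SE of 0.35. Klf7 (chr1:64068606-64161508, minus strand, ENSMUSG00000025959), known from neurons, held 674, 249 and 197 in Halo-NLS and 334 to 667 in the SOX9 libraries. Halo-NLS replicate 1 lay above all SOX9 libraries for Klf7 and the other control libraries below all of them, and without it Klf7 passed against Halo-NLS in SOX9-Halo_budding (1.17, adjusted p = 0.00456), SOX9-mEGFP_budding (1.40, adjusted p = 0.00189) and SOX9-mEGFP_spheroid (1.21, adjusted p = 0.00152).

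**Figure D2:**
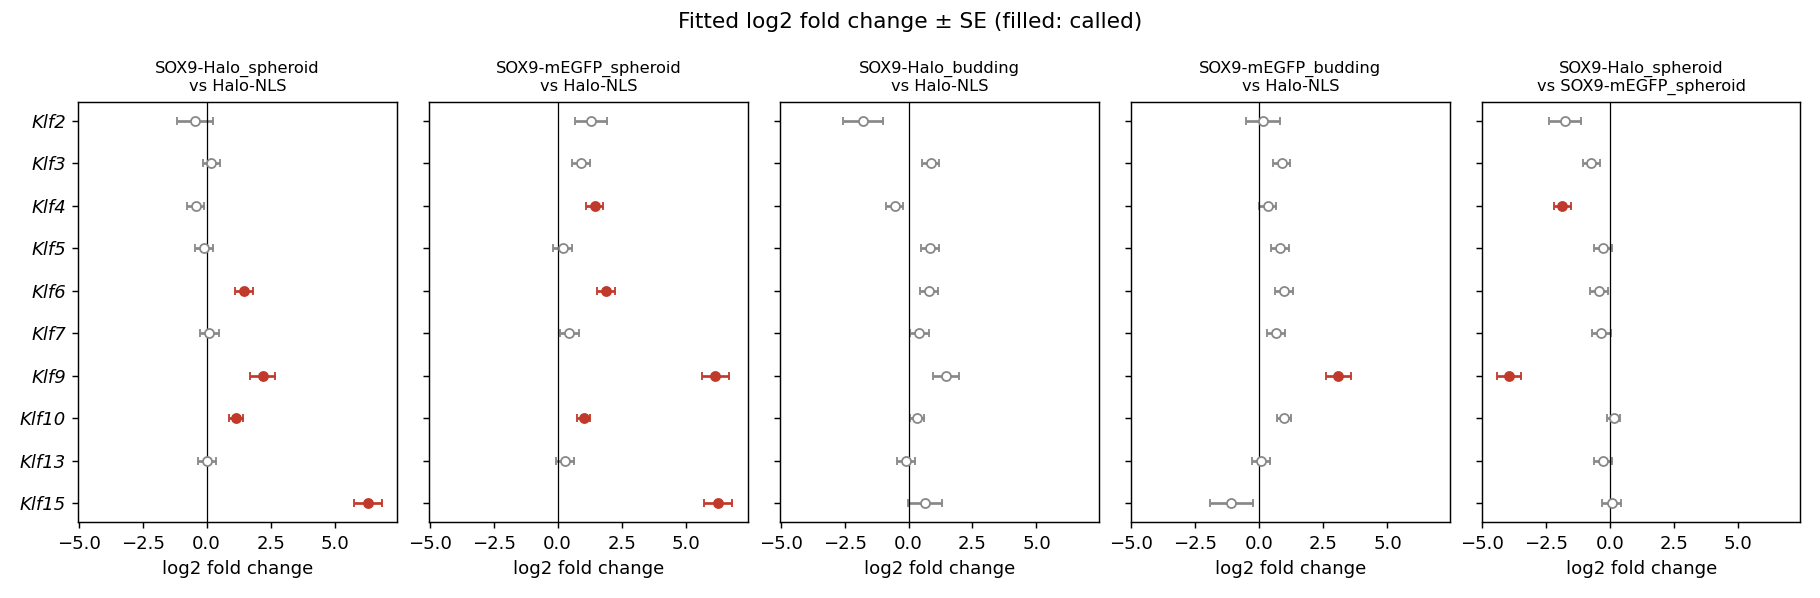
Fitted log2 fold change of the 10 KLF genes in 5 comparisons; bars are ± SE and filled red points are called. Klf15 lies at 6.32 and 6.26 against Halo-NLS in the spheroids, fitted against near-zero counts, and Klf9 at 6.17 in SOX9-mEGFP_spheroid and 2.19 in SOX9-Halo_spheroid.

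In SOX9-Halo_budding 0 of the 10 members were called against Halo-NLS, where 3.75% of all genes were, and in SOX9-mEGFP_budding 1 was (Klf9), where 2.76% were. The median log2 fold change of the 10 genes was 0.53 and 0.74, against 0.01 and 0.03 for all tested genes, and both medians were above the 0.14 of SOX9-Halo_spheroid. Both medians include the sparse Klf2 and Klf15 and the control library Halo-NLS replicate 3, the lowest of its condition for 8 members. With single libraries left out, the abundant Klf5 ran from 0.46 to 1.17 in SOX9-Halo_budding and from 0.43 to 1.14 in SOX9-mEGFP_budding. Without Halo-NLS replicate 1 the members called were 2 and 3, Klf6 and Klf7 in both. Calls over all genes then went up as well, to 2370 and 2184 from 659 and 484. Between both budding lines 0 were called, where 0.456% of all genes were. Between budding and spheroid organoids of the same line, 1 member was called in the SOX9-Halo line (Klf15, where 25.3% of all genes were called and 10.5% called higher) and 2 in the SOX9-mEGFP line (Klf9 and Klf15, where 16.4% were called and 8.55% called higher). The libraries of both conditions did not overlap for 4 members in SOX9-Halo_spheroid (54.8% of all genes), 6 in SOX9-mEGFP_spheroid (56.5%), 2 in SOX9-Halo_budding (29.7%) and 5 in SOX9-mEGFP_budding (32.5%) against Halo-NLS. They did not overlap for 4 members between spheroid and budding in the SOX9-Halo line (52.8%) and 5 in the SOX9-mEGFP line (46.0%), for 3 between the budding lines (12.0%) and for 4 between the spheroid lines (48.6%). The comparisons against Halo-NLS share their control libraries, and those within a line share the spheroid libraries with them.

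Levels of different genes were compared as normalized counts per kb of exon, with all annotated exons of a gene joined. The order depends on this length, which was 15.0 kb for Klf3 and 3.15 kb for Klf4. In Halo-NLS Klf3 had a mean of 1831 normalized counts and Klf4 of 1323, the reverse of their order per kb. In Halo-NLS the order was Klf5 (910 ± 489, SD, n = 3), Klf4 (420.1), Klf13 (298), Klf10 (278), Klf6 (185), Klf3 (122), Klf7 (44.1), Klf2 (3.99), Klf9 (1.44) and Klf15 (0.385), and neighbours overlapped except Klf7 and Klf2. Klf5 led in 4 of 5 conditions, without overlap with the next gene in SOX9-Halo_budding (1640 ± 493, next Klf10 at 351), SOX9-mEGFP_budding (1604 ± 173, next Klf10 at 543) and SOX9-Halo_spheroid (843 ± 72.2, next Klf10 at 615). In SOX9-mEGFP_spheroid Klf4 (1153 ± 205) and Klf5 (1040 ± 196) overlapped at the top, followed by Klf6 (694) and Klf10 (563). Klf9 stood seventh there at 103 ± 35.9 per kb, overlapping Klf7 at 60.7. Klf15 reached 31.1 ± 9.85 and 32.4 ± 7.39 per kb in the spheroids and stayed below Klf7 or overlapped it, and so remained among the 3 lowest members.

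Of the 16 other SP and KLF genes, 9 were tested and Klf8, Klf12, Klf14, Klf17, Sp6, Sp7 and Sp8 were too low. Against Halo-NLS 0 rose and 2 fell in SOX9-Halo_spheroid, and 1 rose and 2 fell in SOX9-mEGFP_spheroid, with medians of -0.31 and -0.15 against -0.01 and 0.03 for all genes. Of all tested genes 28.9% and 27.5% were called in these 2 comparisons. Sp5, known as a target of Wnt signalling, was at 23.5 to 88.0 in Halo-NLS and at most at 0.946 in SOX9-Halo_spheroid, at least 19.0-fold lower (adjusted p = 1.71e-04), while SOX9-mEGFP_spheroid held 34.6 to 84.8. Sp9, known from limb and forebrain development, was at 111 to 138 in Halo-NLS, at 10.7 to 26.1 in SOX9-Halo_spheroid (fell by 2.72 ± 0.46, adjusted p = 1.90e-04), and at most at 2.86 in SOX9-mEGFP_spheroid (at least 45.1-fold lower, adjusted p = 1.31e-06). It also fell in SOX9-mEGFP_budding (-4.39 ± 0.52 on the log2 scale, adjusted p = 1.49e-04). Sp1, a widely expressed activator, rose in SOX9-mEGFP_spheroid by 1.93 ± 0.42 (adjusted p = 0.00183) and Klf1, the erythroid member, fell by 1.20 ± 0.24 (adjusted p = 8.29e-04). Sp1 had a mean of 901 in Halo-NLS, with libraries from 435 to 1784. Its means were 2735 in SOX9-Halo_budding, 3021 in SOX9-mEGFP_budding, 2040 in SOX9-Halo_spheroid and 3425 in SOX9-mEGFP_spheroid. Klf11, the nearest relative of Klf10, fell by 1.34 ± 0.32 from SOX9-Halo_budding to SOX9-Halo_spheroid (adjusted p = 0.00332). The abundant Klf16 and Sp3 passed in neither spheroid.

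Genes known to respond to glucocorticoids are shown beside Klf9 and Klf15 because both are counted among them. Of 9 such genes, 4 rose and 1 fell in each spheroid condition against Halo-NLS, with medians of 0.63 in SOX9-Halo_spheroid and 1.48 in SOX9-mEGFP_spheroid, and 0 were called in either budding condition. Over all genes 28.9% and 27.5% were called in these spheroids, 13.6% and 15.3% higher. In SOX9-Halo_budding and SOX9-mEGFP_budding only 3.75% and 2.76% of all genes were called. Fkbp5, a chaperone partner of steroid receptors, rose from 273 to 617 normalized counts in Halo-NLS to 4966 to 5841 in SOX9-Halo_spheroid (3.50 ± 0.43, adjusted p = 8.67e-06) and 7395 to 9661 in SOX9-mEGFP_spheroid (4.20 ± 0.44, adjusted p = 3.27e-06). Errfi1, an inhibitor of EGFR, rose by 1.93 ± 0.22 and 1.48 ± 0.22. Sgk1, a kinase of ion transport, rose by 1.33 ± 0.30 and 2.13 ± 0.31. Mt2, a metallothionein and the most abundant gene of the list, went the other way (-3.65 ± 0.22 and -2.30 ± 0.21). Zbtb16 was called higher against Halo-NLS in SOX9-Halo_spheroid (3.19 ± 0.78) and was higher there than in SOX9-mEGFP_spheroid (4.77 ± 0.88, adjusted p = 8.54e-04), and Cebpd was called higher in SOX9-mEGFP_spheroid (1.59 ± 0.22) and was lower in SOX9-Halo_spheroid than there (-1.14 ± 0.22, adjusted p = 0.00117). The receptor gene Nr3c1 was not called (-0.34 ± 0.58 and 1.60 ± 0.59). Per1 and Tsc22d3, also on the list, were called in neither spheroid.

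**Figure D3:**
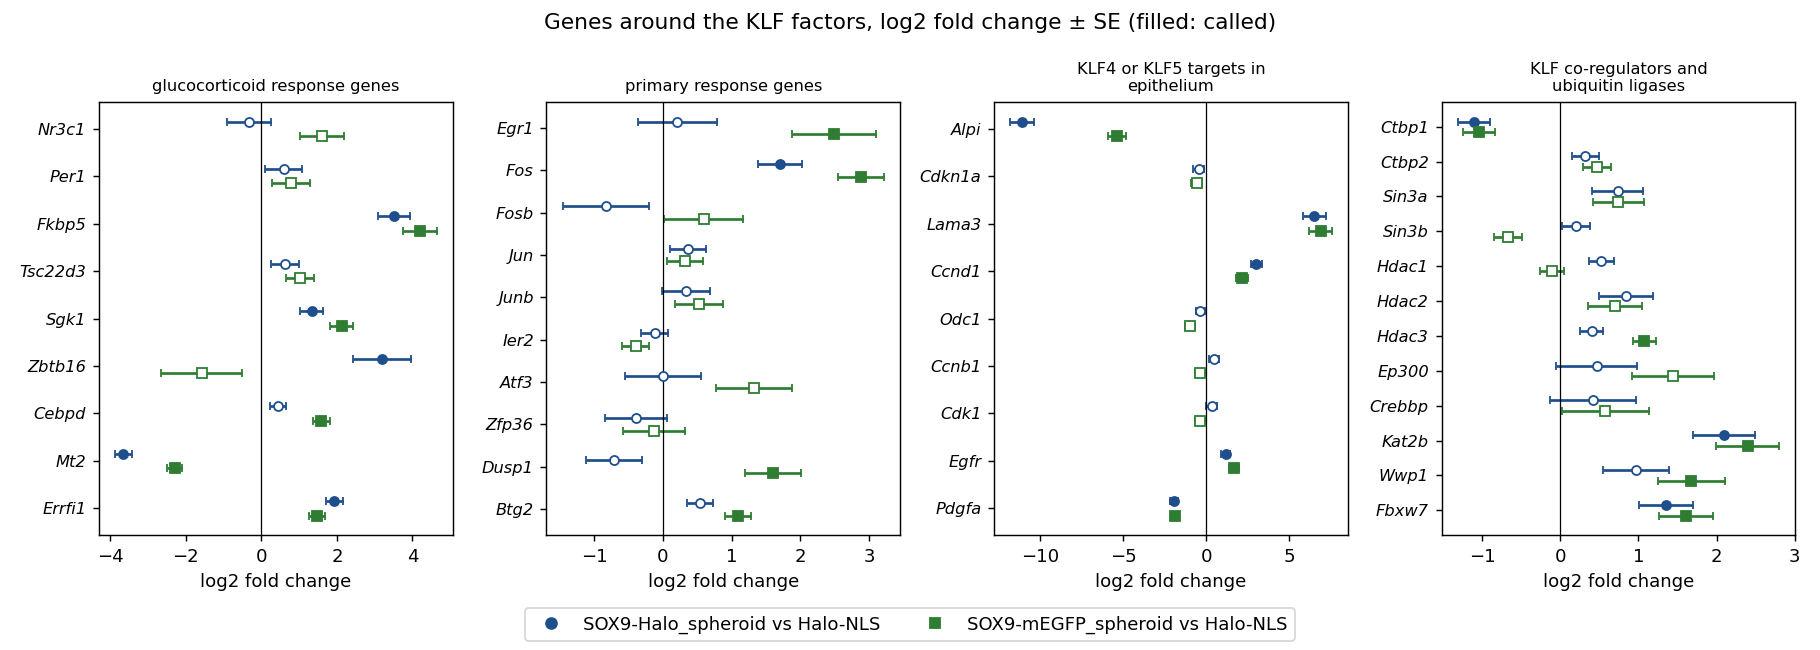
Fitted log2 fold change against Halo-NLS of 4 lists of genes in SOX9-Halo_spheroid (blue circles) and SOX9-mEGFP_spheroid (green squares); bars are ± SE and filled points are called. In the glucocorticoid list Fkbp5 lies at 3.50 and 4.20 and Mt2 at -3.65 and -2.30, and in the target list Alpi lies at -11.09 and -5.36.

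Of 10 primary response genes, the class to which Klf2, Klf4, Klf6 and Klf10 also belong in many cell types, 1 rose in SOX9-Halo_spheroid and 4 in SOX9-mEGFP_spheroid against Halo-NLS, and none fell. The shares of all genes called higher there were 13.6% and 15.3%. Fos rose in both (1.71 ± 0.32 and 2.88 ± 0.33), and Egr1 (2.48 ± 0.61), Dusp1 (1.61 ± 0.41) and Btg2 (1.10 ± 0.19) were called in SOX9-mEGFP_spheroid. Junb and Ier2, 2 of the 3 most abundant genes of the list, were not called in either.

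Of 9 genes described as targets of KLF4 or KLF5 in epithelium, 3 rose and 2 fell in each spheroid condition, the same 5 genes in both. Among all genes 28.9% were called in SOX9-Halo_spheroid and 27.5% in SOX9-mEGFP_spheroid, in either direction. Lama3, a laminin chain, went from 8.43 normalized counts in Halo-NLS to 775 in SOX9-Halo_spheroid and 999 in SOX9-mEGFP_spheroid (6.52 ± 0.66 and 6.89 ± 0.67). Ccnd1, encoding cyclin D1, rose by 3.03 ± 0.36 and 2.17 ± 0.34 and Egfr by 1.17 ± 0.29 and 1.69 ± 0.29. Alpi, the alkaline phosphatase of the enterocyte brush border and a marker of differentiation, fell (log2 fold changes -11.09 ± 0.71 and -5.36 ± 0.54), as did Pdgfa (-1.94 ± 0.21 and -1.90 ± 0.21). Cdkn1a and Odc1, the most abundant of the list, were not called. Klf4 and Alpi thus went in opposite directions in SOX9-mEGFP_spheroid.

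Of 12 co-regulators and ubiquitin ligases that act on KLF proteins, 2 rose and 1 fell in SOX9-Halo_spheroid and 4 rose and 1 fell in SOX9-mEGFP_spheroid. The same calls covered 28.9% and 27.5% of all genes. The list's median log2 fold change against Halo-NLS was 0.49 and 0.72 in these spheroids. It was larger, 1.11 and 1.04, in SOX9-Halo_budding and SOX9-mEGFP_budding, where 0 were called (3.75% and 2.76% of all genes). From budding to spheroid the medians were -0.18 in the SOX9-Halo line and -0.06 in the SOX9-mEGFP line, and 0 were called (25.3% and 16.4% of all genes). Kat2b, an acetyltransferase, rose by 2.09 ± 0.40 and 2.40 ± 0.40, and Fbxw7, a ligase subunit known to mark KLF5 for degradation, by 1.35 ± 0.35 and 1.61 ± 0.35. Ctbp1, the co-repressor of KLF3, fell (-1.11 ± 0.21 and -1.04 ± 0.21). Hdac3 (1.07 ± 0.15) and Wwp1, another ligase of KLF5 (1.68 ± 0.43), were called in SOX9-mEGFP_spheroid. Of 5 genes of the ERK5 and MEF2 route to Klf2 and Klf4, Mef2c was too low to test, and Mef2a rose in SOX9-mEGFP_spheroid (2.02 ± 0.48, adjusted p = 0.00331). The means of Mef2a were 272 in Halo-NLS, 755 in SOX9-Halo_budding, 710 in SOX9-mEGFP_budding, 761 in SOX9-Halo_spheroid and 1106 in SOX9-mEGFP_spheroid. Mef2d, Mapk7 and Map2k5 were called in neither spheroid, and the median of the 4 tested genes was -0.01 in SOX9-Halo_spheroid and -0.37 in SOX9-mEGFP_spheroid.

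For each member the 3 genes with the most similar pattern were taken by the root mean square difference of log2 CPM, each centred on its mean over the 15 libraries. This is a description over libraries that share conditions, and says nothing of shared control. The nearest to Klf15 were Gjb5, a connexin (0.521), Zfp750, a factor of epidermal differentiation (0.550), and Psapl1 (0.577), where the median gene differed from Klf15 by 2.88. Gjb5 held 275, 204 and 188 normalized counts in SOX9-Halo_spheroid and 107, 155 and 150 in SOX9-mEGFP_spheroid, and at most 4.88 in each of the 9 other libraries, in 6 of which it was at 0. Psapl1 held 1097 to 1395 and 492 to 796 in the spheroids and at most 32.7 elsewhere.

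The nearest to Klf9 were Kbtbd11 (0.694), Tshz2 (0.726) and Setbp1 (0.748), less close than the genes next to Klf15. Kbtbd11 held 826, 627 and 1289 in SOX9-mEGFP_spheroid and 148, 105 and 23.4 in SOX9-Halo_spheroid. The nearest to Klf4 were Garem1 (0.393), Ctsc (0.399) and Prr13 (0.425). The remaining nearest genes were Mtmr6 (0.217), Zfp143 and Lman1 for Klf6, Ccser1 (0.226), Pacsin2 and Msmo1 for Klf10, Gpatch8 (0.200), Tet3 and Ankrd11 for Klf5, Hmbox1 (0.173), Med1 and Wdr7 for Klf3, Wasf2 (0.152), Fbxl17 and Acvr1 for Klf13, Paip1 (0.248), Ube2g1 and Arl15 for Klf7, and 1700001O22Rik (0.583), Gm33524 and 5033406O09Rik for the sparse Klf2. None of these was a KLF gene.

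**Figure D4:**
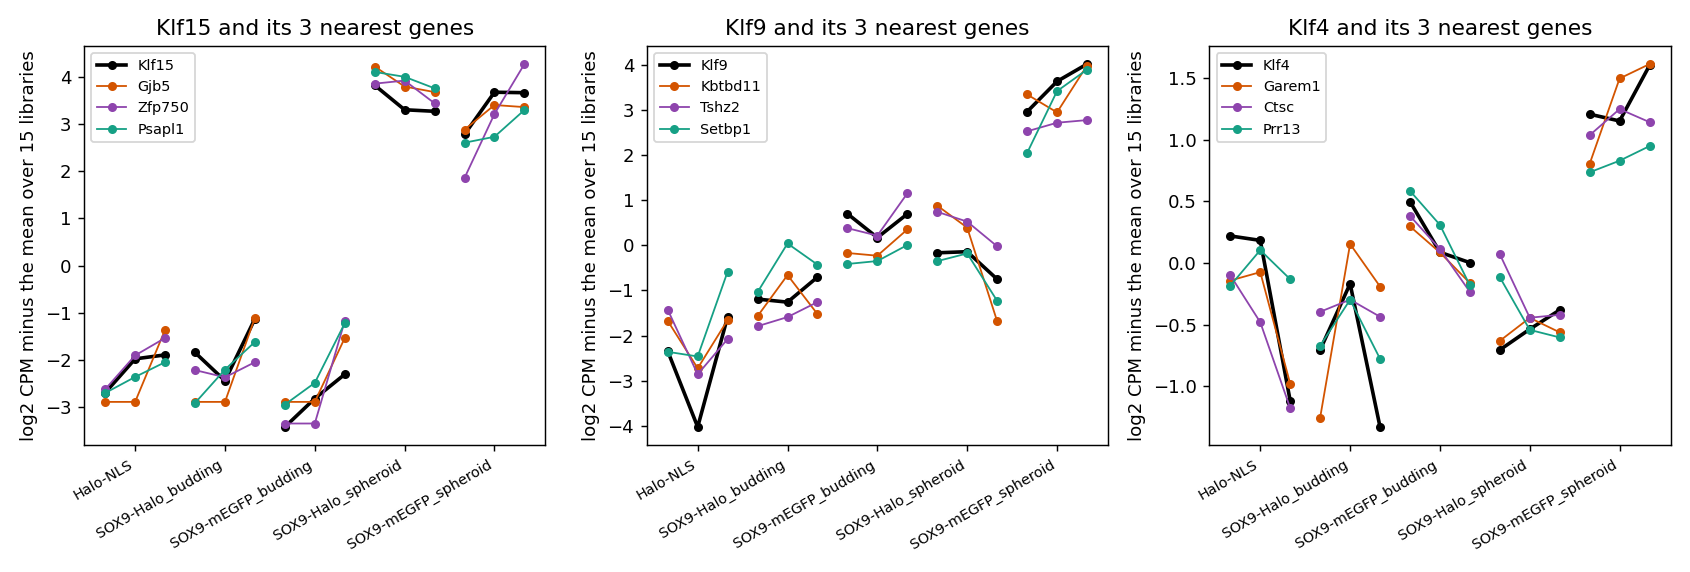
Log2 CPM minus the mean over the 15 libraries of Klf15, Klf9 and Klf4 (black) and of the 3 genes nearest to each; points are libraries in replicate order within each condition. Klf15, Gjb5, Zfp750 and Psapl1 are high in the 6 spheroid libraries, and Klf9 with Kbtbd11, Tshz2 and Setbp1 in the 3 SOX9-mEGFP_spheroid libraries.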

How the data were processed

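The authors trimmed reads with cutadapt 4.5, aligned them to mm39 (GRCm39) with STAR, kept unique alignments and counted them per gene with HTSeq 2.0.2 in union mode without strand, so the deposited counts are whole numbers and not normalized. Reads on no gene were 1.83% to 6.09% and on several genes 9.65% to 13.6% of each library, and were left out. A deposited table of normalized values and tables of the authors' own comparisons (fold changes, p-values) were not used.

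Counts were filtered with filterByExpr by condition (17560 of 78298 genes), scaled with TMM and fitted over all 15 libraries with edgeR 4.0.16 (R 4.3.3). A call needed an adjusted p of 0.01, a log2 fold change of 1 and 10 normalized counts. SE was taken as the size of the log2 fold change over the root of its F statistic. For a condition with no library above 3 counts, folds are lower bounds set against 3 counts per library, which covers counting error only. Alternatives were other scalings, no filter, fewer libraries, DESeq2 1.42.0, a replicate block, an adjusted p of 0.05 and leaving out libraries. The fit was tested on simulated data. Of the gene identifiers, 78168 were in GENCODE M39. The upstream window of 1 member is not reported here.

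The members and lists were chosen with earlier results of these data known. The text names all 10 members, the 3 most abundant tested genes and called genes of the lists, some list genes that were not called, each member's 3 nearest genes, and Sox9. The marker lists for fibroblasts, smooth muscle and immune cells summed to at most 56.6, 60.5 and 128 normalized counts in any library. Same-numbered libraries correlated above 0.1 in 16 of 30 pairs, and in all 3 pairs for 1 of 10 pairs of conditions.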

Additional observations from a re-analysis of the deposited data

Results flagged for a closer look

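Several results differed between the SOX9-Halo and SOX9-mEGFP spheroids when these were compared directly. Both spheroids have the same Halo-NLS control, which cancels. The difference of their changes from Halo-NLS is therefore the spheroid comparison already given above, not a further test. Klf4 (-1.87) and Klf9 (-3.98) had a log2 change from Halo-NLS to spheroid that was smaller in the SOX9-Halo line by these amounts (edgeR, adjusted p = 8.32e-04 and 1.48e-05). Among the other SP genes, Sp5 differed by -6.83 on the fitted log2 scale in the same test and Sp9 by 4.19, with Sp5 at most at 0.946 normalized counts in SOX9-Halo_spheroid and Sp9 at most at 2.86 in SOX9-mEGFP_spheroid. For Sp5 the change from budding to spheroid differed as well, by -6.41. In that test 0 of the 10 KLF members were called, where 7.39% of all genes were. The groups of 3 libraries were too small for a test of single outlying libraries. Libraries that stood apart are described above, and each library was left out in turn.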

How the results depend on the processing

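The calls of Klf15 in 4 comparisons, of Klf9 in SOX9-mEGFP_spheroid against Halo-NLS, SOX9-mEGFP_budding and SOX9-Halo_spheroid, of Klf6 in SOX9-mEGFP_spheroid against Halo-NLS, and of Klf4 between the spheroid lines held under every alternative in which the gene was fitted. With 3 libraries per condition and a common biological coefficient of variation of 0.302, changes near 2-fold, as in Klf10, lay near the threshold. Over all members, comparisons and alternatives, 1871 fold changes kept their direction and side of the threshold, 21 lost a call, 25 gained one, and 64 changed sign, none of the last being a call. The cause was not tested.

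The number of members called in SOX9-mEGFP_budding against Halo-NLS was 2 when scaled by library size alone and 2 without a filter on low counts. It was 0 in a fit of only the libraries compared and 2 at an adjusted p of at most 0.05 with no fold minimum. In the same order 728, 1991, 103 and 2554 of all genes were called, against 484 in the fit described above. Without the filter the number was 1 in SOX9-Halo_budding against Halo-NLS (2357 of all genes) and 1 between the budding lines (280), each time Klf9. DESeq2 also gave 1 between the budding lines, again Klf9 (200 of all genes). For the difference of the budding-to-spheroid changes 1 member, Klf9, was called without the filter, with only the libraries compared, with DESeq2 and at 0.05. In that order 1881, 1429, 1714 and 2131 of all genes were called. With only the libraries compared the number was 1 in SOX9-Halo_spheroid (4313 of all genes) and 3 in SOX9-mEGFP_spheroid (3685), both against Halo-NLS. At 0.05 the number was 3 in SOX9-Halo_spheroid against SOX9-Halo_budding (6478 of all genes) and 4 in SOX9-mEGFP_spheroid against SOX9-mEGFP_budding (4500). When each library was left out in turn, the number against Halo-NLS ran from 2 to 4 in SOX9-Halo_spheroid, where 4 is also the number with all libraries. It ran from 3 to 6 in SOX9-mEGFP_spheroid, from 0 to 2 in SOX9-Halo_budding and from 1 to 3 in SOX9-mEGFP_budding. The highest of these 3 ranges came without Halo-NLS replicate 1, where 5810, 2370 and 2184 of all genes were called. From budding to spheroid in the SOX9-mEGFP line the number ran from 2 to 3, and for the difference of the changes from 0 to 1.

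The replicate number as a block changed no number of calls. Same-numbered libraries correlated above 0.1 in all 3 pairs for SOX9-Halo_budding with SOX9-Halo_spheroid alone, where a block within that line, added after seeing the data, also left Klf15 as the 1 call. With the block over all libraries Klf2 changed sign in SOX9-mEGFP_budding against Halo-NLS (-0.032) and in the difference of the changes (-0.027). Klf13 in SOX9-Halo_spheroid against Halo-NLS was -0.014 with DESeq2's size factors, -0.018 with only the libraries compared and -0.0049 with DESeq2. Scaling by library size alone gave 0.18 for Klf5 in SOX9-Halo_spheroid against Halo-NLS, 0.19 for Klf13 in SOX9-Halo_budding against Halo-NLS, and 0.056 for Klf3 between the budding lines, where only the libraries compared gave 0.019. Klf2 or Klf15 could not be fitted in 9 cases in which the filter removed them.

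Signs that changed when a library was left out belonged to values near 0. For SOX9-Halo_spheroid against Halo-NLS the ranges were -0.49 to 0.21 for Klf5, -0.16 to 0.45 for Klf13, -0.20 to 0.86 for Klf7, -0.17 to 0.49 for Klf3. For SOX9-mEGFP_budding against Halo-NLS the ranges were -0.13 to 0.49 for Klf13, -0.78 to 0.54 for Klf2. For SOX9-Halo_budding against Halo-NLS the ranges were -0.48 to 0.33 for Klf13. For SOX9-mEGFP_spheroid against Halo-NLS the ranges were -0.19 to 0.51 for Klf5, -0.035 to 0.72 for Klf13. For SOX9-Halo_spheroid against SOX9-Halo_budding the ranges were -0.17 to 0.50 for Klf13, -0.10 to 0.45 for Klf4. For SOX9-Halo_budding against SOX9-mEGFP_budding the ranges were -0.22 to 0.21 for Klf3, -0.54 to 0.13 for Klf13, -0.20 to 0.24 for Klf5. For the difference of the budding-to-spheroid changes the ranges were -0.40 to 0.27 for Klf13, -0.69 to 0.69 for Klf2. For SOX9-mEGFP_spheroid against SOX9-mEGFP_budding the ranges were -0.12 to 0.22 for Klf3, -0.064 to 0.17 for Klf10, -0.10 to 0.41 for Klf13. For SOX9-Halo_spheroid against SOX9-mEGFP_spheroid the ranges were -0.037 to 0.23 for Klf10, -0.20 to 0.19 for Klf15, -0.48 to 0.027 for Klf13.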
